A study of Mus musculus with 14 samples.

Results

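The genes described here encode cytosolic and mitochondrial chaperones and their co-chaperones, which fold proteins, keep them folded and pass damaged ones on for degradation. Members were named by gene symbol, in 10 classes. Each was read from the brightest probe set that the platform annotation gives to that gene alone. Of 50 members named, 47 were measured in this way, out of 22180 genes on the array. Hsf1 and Hsp90ab1 are not analysed here, and Dnaja1 stands only in a probe set that the annotation gives to several genes, so it was not used.

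Liver RNA came from 14 C57BL/6J males (a common inbred strain), of which 7 belonged to a sleep-deprived group (samples 1, 2, 3, 5, 6, 10 and 13) and 7 to a control group (samples 4, 7, 8, 9, 11, 12 and 14). Sleep was withheld once, for 6 h, and the study addressed glucose tolerance and liver fat. The study tried gentle handling, a water platform and changes of cage, and the labels give neither the method behind these samples nor the age, feeding state, body temperature or time of collection. Values were log2 expression per probe set, with 100 ng of RNA labelled per sample, and array medians lay between 3.44 and 3.49. Each numbered sample was taken as 1 mouse, and p-values measure the spread between these samples.

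HSP70 proteins bind unfolded stretches of a client protein in a cycle of ATP hydrolysis. J-proteins bring clients and start hydrolysis, and exchange factors, among them the HSP110 proteins, release the nucleotide and the client. HSP90 takes clients on from HSP70, steroid hormone receptors and kinases among them, with co-chaperones that set the pace of its cycle. The ring-shaped CCT chaperonin folds actin and tubulin in the cytosol, and HSP60 with HSP10 does the like in mitochondria. The transcription factor HSF1 raises many of these genes under heat and other protein-damaging stress by binding heat shock elements, which are inverted repeats of GAA and TTC.

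The promoters below show the members with the largest differences that hold the letters of a heat shock element, the CCT subunit gene Cct2 as a smaller responder, and Hspe1 as a gene that carries the letters and did not pass the test. Hspe1 was picked after its values were seen, and the others by a rule on call, size and motif. Each window runs from 250 bases before to 50 after an annotated start of transcription, 5′ to 3′, from RefSeq (GRCm38.p6). Hsph1 and Cct2 each have another annotated start that is not shown. Its window holds matches for Hsph1 and none for Cct2. Capitals mark matches to GAANNTTC or TTCNNGAA, each of which reads the same on both strands, and overlapping matches run together. Hsph1 lies at chr5:149636266-149636565 on the minus strand, Chordc1 at chr9:18292017-18292316 on the plus strand, Bag3 at chr7:128523333-128523632 on the plus strand, Cct2 at chr10:117063326-117063625 on the minus strand and Hspe1 at chr1:55087898-55088197 on the plus strand.
Hsph1: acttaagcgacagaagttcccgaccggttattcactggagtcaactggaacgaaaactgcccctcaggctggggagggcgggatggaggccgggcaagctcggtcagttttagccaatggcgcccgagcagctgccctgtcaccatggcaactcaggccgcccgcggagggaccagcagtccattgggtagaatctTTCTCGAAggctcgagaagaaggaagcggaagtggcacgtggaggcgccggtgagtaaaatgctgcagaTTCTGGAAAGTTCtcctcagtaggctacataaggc
Chordc1: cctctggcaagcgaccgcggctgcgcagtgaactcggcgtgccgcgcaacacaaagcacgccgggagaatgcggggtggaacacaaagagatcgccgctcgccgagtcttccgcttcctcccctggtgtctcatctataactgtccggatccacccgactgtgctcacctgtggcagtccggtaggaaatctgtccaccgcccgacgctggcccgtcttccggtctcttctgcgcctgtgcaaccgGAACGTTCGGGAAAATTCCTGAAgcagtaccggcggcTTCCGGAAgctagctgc
Bag3: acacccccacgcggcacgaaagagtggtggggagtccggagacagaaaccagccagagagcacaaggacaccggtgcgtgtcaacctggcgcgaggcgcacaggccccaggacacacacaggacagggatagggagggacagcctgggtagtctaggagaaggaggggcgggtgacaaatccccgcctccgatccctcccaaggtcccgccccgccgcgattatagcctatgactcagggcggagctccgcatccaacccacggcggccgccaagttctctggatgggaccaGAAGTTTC
Cct2: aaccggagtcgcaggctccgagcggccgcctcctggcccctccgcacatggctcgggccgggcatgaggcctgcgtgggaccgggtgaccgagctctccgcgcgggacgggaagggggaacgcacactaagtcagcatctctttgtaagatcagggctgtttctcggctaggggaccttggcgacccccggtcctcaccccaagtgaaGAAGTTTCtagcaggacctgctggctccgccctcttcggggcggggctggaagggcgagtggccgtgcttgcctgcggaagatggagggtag
Hspe1: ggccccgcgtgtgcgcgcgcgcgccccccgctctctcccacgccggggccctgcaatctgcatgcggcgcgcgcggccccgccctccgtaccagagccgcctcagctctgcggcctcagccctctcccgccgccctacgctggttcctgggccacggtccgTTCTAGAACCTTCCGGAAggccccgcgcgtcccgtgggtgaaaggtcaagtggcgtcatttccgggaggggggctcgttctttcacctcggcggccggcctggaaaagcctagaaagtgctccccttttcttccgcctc

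Sleep-deprived livers had 13 of the 47 chaperone genes higher and 0 lower by limma, at an adjusted p under 0.05 over all 22180 genes. Over all genes 8.5% were called, 3.88% higher and 4.62% lower, and among the 5796 genes at a mean log2 level of at least 6 the shares were 10.4% and 11.9%. At that level 12 of 31 chaperone genes were called higher. At an unadjusted p under 0.05, 18 chaperone genes were higher and 1, Hspb6, was lower, while 19.4% of all genes passed in either direction. Higher at that p were 1989 of all 22180 genes, and 1110 of the 5796 at a mean log2 level of at least 6. The groups did not overlap at 8 chaperone genes, all higher after sleep deprivation, against 3.13% of all genes, 1.34% higher and 1.79% lower. Bright genes separated more often, with 236 higher and 303 lower of the 5796 at a mean log2 level of at least 6. The median log2 difference of the 47 genes was 0.086, beside -0.0048 over all genes.

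The 13 genes were Hsph1, Chordc1, Bag3, Hspb1, Hsp90aa1, Dnaja3, Stip1, Ahsa1, Cct3, Hspa8, Hspb8, Cct2 and Hspa4, in order of their log2 differences, which lay between 0.21 (1.16-fold) and 0.90 (1.86-fold) with a median of 0.37. They came from 8 of the 10 classes, and the 7 sleep-deprived samples were above the control mean at each of them. The 34 other members had log2 differences between -0.14 and 0.45, with a median of 0.041. The plot of differences by class shows both sets.

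**Figure D1:**
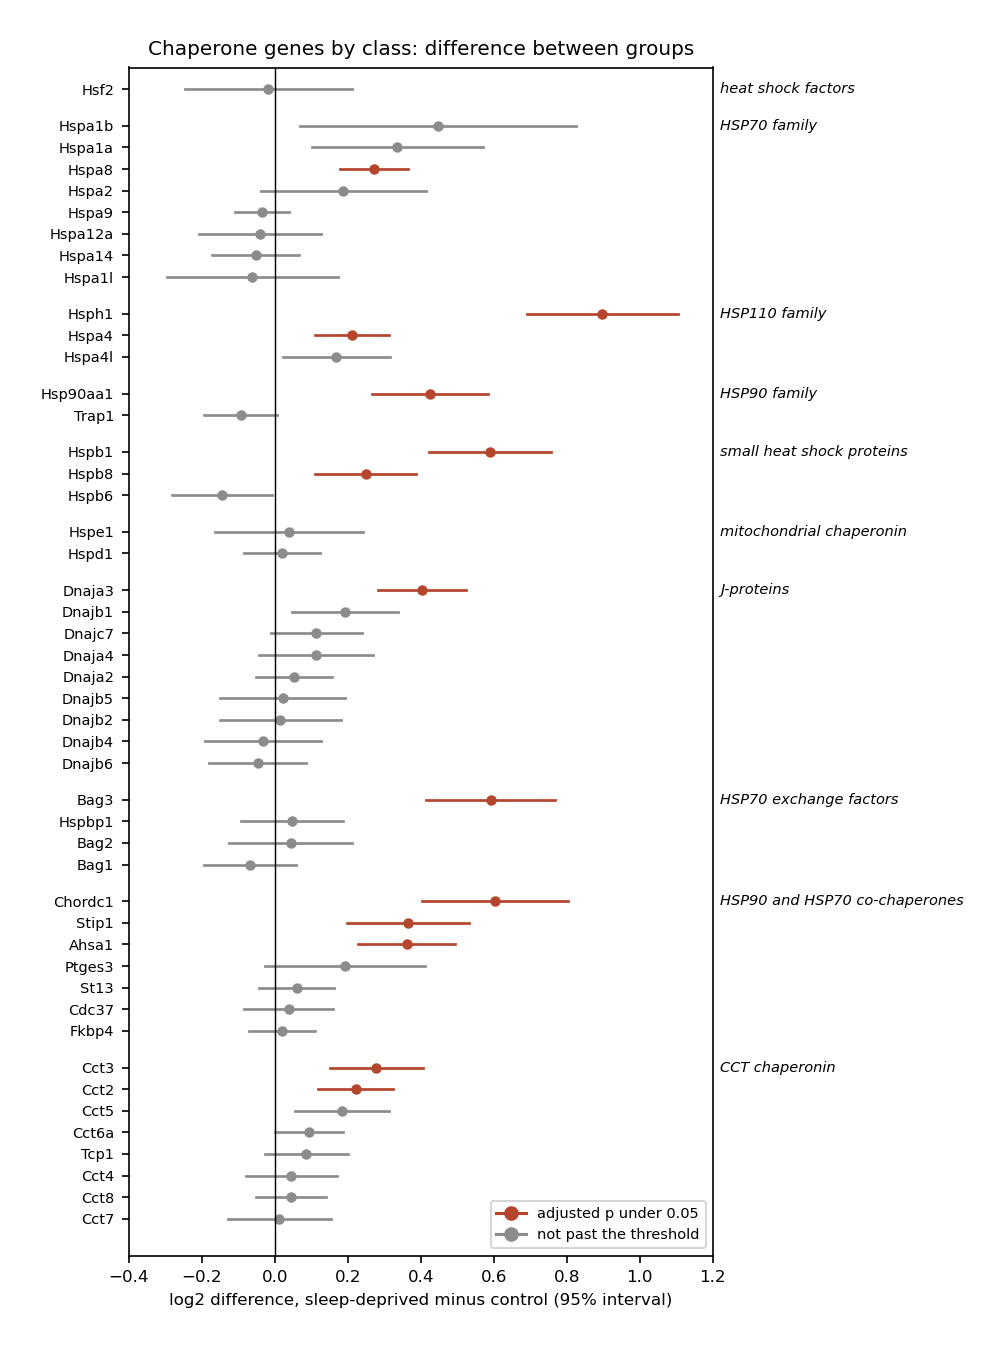
Log2 difference between sleep-deprived and control livers for the 47 chaperone genes, sorted by class, with 95% intervals from limma (7 samples per group). The 13 genes past the threshold, in red, lie between 0.21 and 0.90, and the 34 others, in grey, between -0.14 and 0.45.

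Among the heat shock factors, Hsf2, a factor that can pair with HSF1, had a lowest, median and highest log2 level of 5.87, 6.22 and 6.38 in sleep-deprived livers, against 5.81, 6.36 and 6.49 in controls. The ranges overlapped almost wholly. Its log2 difference was -0.018 ± 0.11 (moderated SE here and below, limma adjusted p = 0.962), with a 95% interval from -0.25 to 0.21.

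In the HSP70 family 1 of 8 genes was called higher. Hspa8 encodes HSC70, the constitutive HSP70 of the cytosol. Its lowest, median and highest log2 levels were 11.21, 11.28 and 11.40 in sleep-deprived livers, against 10.83, 11.01 and 11.11 in controls. Every sleep-deprived sample was above every control. The log2 difference was 0.27 ± 0.045 (limma, adjusted p = 0.000442). Hspa8 had 3 further probe sets at mean log2 levels of 8.73, 8.72 and 7.63, with differences of 0.49, 0.47 and 0.42, and in each of them the groups did not overlap either. The probe set used thus gave the smallest of the 4 differences, and a mean over the 4 gave 0.41. Whether all 4 probe sets read the Hspa8 transcript alone was not tested.

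Hspa1a and Hspa1b encode the stress-inducible HSP70 and are near-identical neighbouring copies, so their probe sets may share signal. Hspa1b ranged over 5.63, 5.99 and 6.65 (lowest, median and highest log2 level) in sleep-deprived livers, against 4.84, 5.73 and 6.39 in controls. Its log2 difference of 0.45 ± 0.18 was the largest among members that did not pass (limma, adjusted p = 0.157), and 2 of 7 sleep-deprived samples were above all controls. Without control sample 7, the highest control, the adjusted p of Hspa1b was 0.0407, and with the sample number as a covariate 0.0462. Hspa1a was dim, with medians of 3.22 in sleep-deprived and 2.91 in control livers, both under the array median. The sleep-deprived range of Hspa1a was 2.96 to 3.60 and the control range 2.64 to 3.16, giving a log2 difference of 0.34 ± 0.11 (limma, adjusted p = 0.0732, and 0.0402 without sleep-deprived sample 5). All 7 sleep-deprived samples were above the control mean of Hspa1a, and 4 were above all controls.

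The other members of the family did not pass. Hspa2, best known from the testis, differed by 0.19 ± 0.11 on the log2 scale (limma, adjusted p = 0.382), Hspa1l, also testis-enriched, by -0.061 ± 0.11, the divergent Hspa12a by -0.041 ± 0.080 and Hspa14, a ribosome-associated HSP70, by -0.05 ± 0.057. Hspa1l had another probe set with a difference of 0.16. Both probe sets of Hspa1l were below the array median.

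The HSP110 family held the largest response, with 2 of 3 genes called higher. Hsph1 encodes HSP105, an exchange factor of HSP70 that also works with it in taking aggregates apart. Its lowest, median and highest log2 levels were 7.32, 7.39 and 7.80 in sleep-deprived livers, against 6.19, 6.62 and 6.87 in controls. Every sleep-deprived sample was above every control. Hsph1 averaged 7.49 ± 0.19 in sleep-deprived and 6.59 ± 0.23 in control livers (SD, n = 7 each), a 1.86-fold difference (log2 0.90 ± 0.099, limma adjusted p = 6.54e-06), which placed it at rank 45 of all 22180 genes by signed difference. Hspa4, its constitutive relative, had levels of 8.55, 8.61 and 8.68 in sleep-deprived livers, against 8.24, 8.40 and 8.52 in controls. These ranges did not overlap, and the log2 difference was 0.21 ± 0.049 (limma, adjusted p = 0.00802). Hspa4l, the third member, ranged from 5.92 to 6.19 in sleep-deprived and from 5.73 to 6.13 in control livers, a log2 difference of 0.17 ± 0.070 (limma, adjusted p = 0.172), with 7 of 7 sleep-deprived samples above the control mean.

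**Figure D2:**
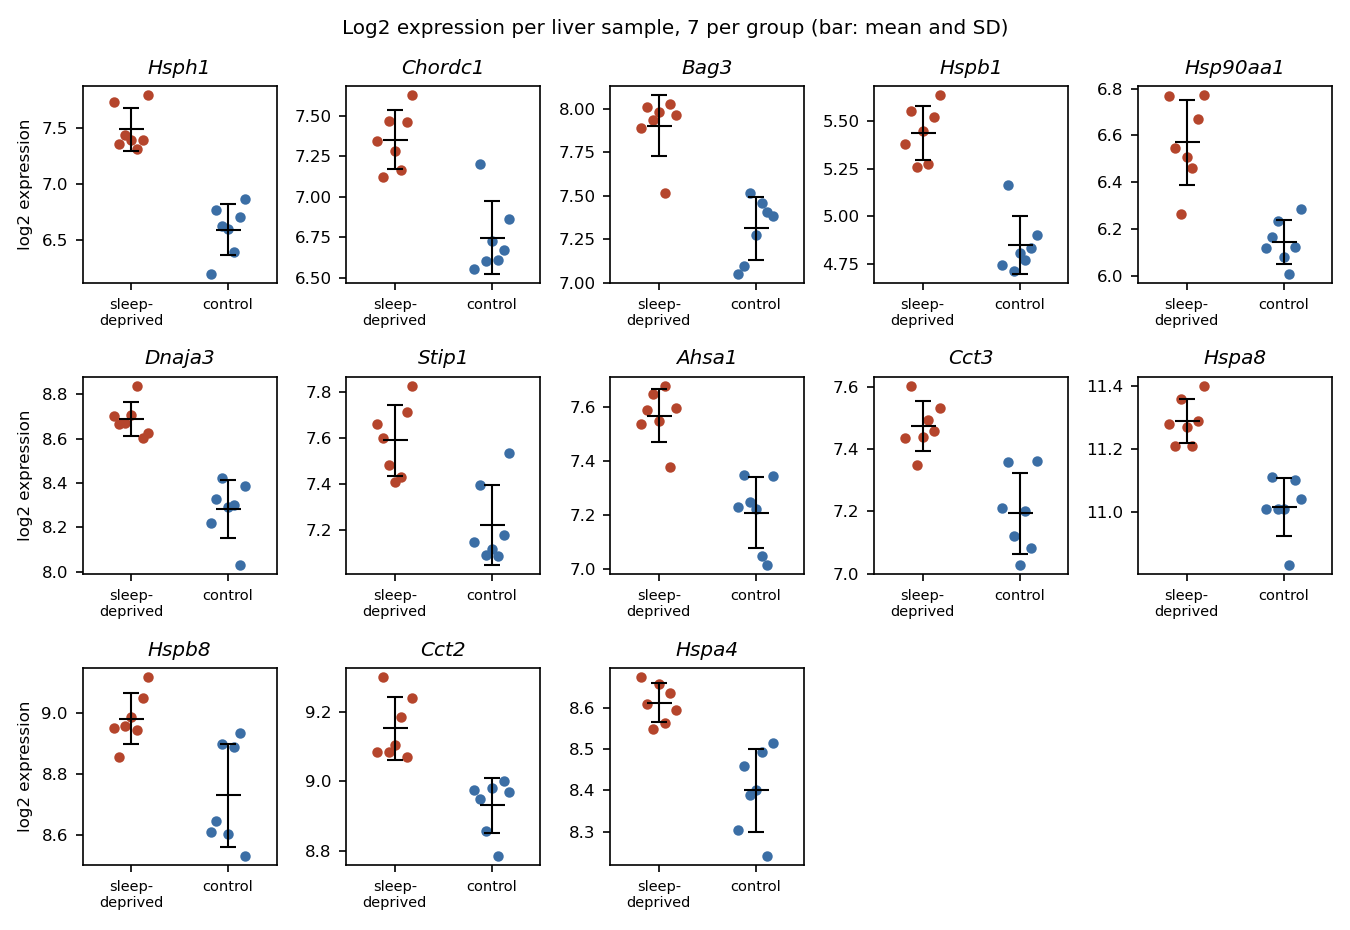
Log2 expression of the 13 chaperone genes past the threshold in each liver sample, sleep-deprived on the left and control on the right of each panel, with the mean and SD (n = 7 each). The groups of Hsph1, Bag3, Hspb1, Dnaja3, Ahsa1, Hspa8, Cct2 and Hspa4 do not overlap, and those of the other 5 genes do.

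Of 9 J-protein genes 1 was called higher. Dnaja3 encodes TID1, the J-protein that works with mitochondrial HSP70. It ranged over 8.60, 8.67 and 8.84 (lowest, median and highest log2 level) in sleep-deprived livers, against 8.03, 8.30 and 8.43 in controls. The groups did not overlap, and the log2 difference was 0.40 ± 0.058 (limma, adjusted p = 0.000105). Its 2 other probe sets were dim, at mean log2 levels of 3.64 and 3.59, and differed by 0.059 and -0.066. Averaging the 3 probe sets of Dnaja3 therefore gave 0.13 and ended the call (limma, adjusted p = 0.395).

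Dnajb1 encodes HSP40, the classical heat-inducible J-protein of the cytosol. Its levels were 5.13, 5.27 and 5.38 in sleep-deprived livers, against 4.79, 5.08 and 5.23 in controls. All 7 sleep-deprived samples were above the control mean and 4 above all controls, yet the log2 difference of 0.19 ± 0.069 did not pass (limma, adjusted p = 0.101). Dnajc7, which handles clients shared by HSP70 and HSP90, was at 0.11 ± 0.059, and Dnaja4 at 0.11 ± 0.075. Dnaja2, a general HSP70 partner, was at 0.052 ± 0.050. Dnajb2, Dnajb4, Dnajb5 and Dnajb6, the last a suppressor of aggregation, lay between -0.047 and 0.022, with 95% intervals that reached from -0.19 to 0.19.

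Of the 4 other exchange factors of HSP70, 1 was called higher. Bag3 links HSP70 and small heat shock proteins to the autophagy of damaged clients. Its lowest, median and highest log2 levels were 7.52, 7.96 and 8.03 in sleep-deprived livers, against 7.05, 7.38 and 7.52 in controls. The lowest sleep-deprived sample, number 6 at 7.517, stood just above the highest control at 7.515, and the 6 other sleep-deprived samples lay between 7.89 and 8.03. The log2 difference of Bag3 was 0.59 ± 0.085 (limma, adjusted p = 0.000111). Bag1, an exchange factor that couples HSP70 to the proteasome, was at -0.067 ± 0.060 (limma, adjusted p = 0.636). Bag2, an inhibitor of the ubiquitin ligase CHIP, was at 0.044 ± 0.081 and Hspbp1, another exchange factor, at 0.047 ± 0.067.

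Small heat shock proteins hold misfolded clients without ATP, and 2 of 3 genes were called higher. Hspb1, known as HSP25 in the mouse, ranged over 5.26, 5.45 and 5.64 in sleep-deprived livers, against 4.71, 4.81 and 5.16 in controls (lowest, median and highest log2 level). The groups did not overlap. The log2 difference of Hspb1 was 0.59 ± 0.080 (limma, adjusted p = 6.22e-05), and a dim second probe set at a mean log2 level of 3.00 was at -0.025. The mean of both Hspb1 probe sets gave 0.28 (limma, adjusted p = 0.0063). Hspb8, the partner of BAG3, had levels of 8.86, 8.96 and 9.12 in sleep-deprived livers, against 8.53, 8.65 and 8.93 in controls, with 6 of 7 sleep-deprived samples above all controls. Its log2 difference was 0.25 ± 0.066 (limma, adjusted p = 0.0203, and 0.0572 with every probe set of the array tested). Hspb6, a small heat shock protein of muscle, was at -0.14 ± 0.066 (limma, adjusted p = 0.230), the lowest difference of all 47 genes.

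In the HSP90 family, Hsp90aa1 encodes the stress-inducible cytosolic form. Its lowest, median and highest log2 levels were 6.26, 6.55 and 6.77 in sleep-deprived livers, against 6.01, 6.12 and 6.29 in controls. Sample 3 was the sleep-deprived sample that fell within the control range. The log2 difference was 0.42 ± 0.076, or 1.34-fold (limma, adjusted p = 0.000972). Trap1, the mitochondrial HSP90, was at -0.094 ± 0.047 (limma, adjusted p = 0.296).

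Co-chaperones of HSP90 and HSP70 were called higher at 3 of 7 genes. Chordc1, a zinc-binding partner of HSP90, ranged over 7.12, 7.35 and 7.63 in sleep-deprived livers, against 6.56, 6.67 and 7.20 in controls (lowest, median and highest log2 level). Control sample 7 alone of the controls reached into the sleep-deprived range. The log2 difference of Chordc1 was 0.60 ± 0.095 (limma, adjusted p = 0.000298). Stip1 encodes HOP, which hands clients from HSP70 to HSP90. It ranged over 7.41, 7.60 and 7.83 in sleep-deprived livers, against 7.09, 7.15 and 7.54 in controls, a log2 difference of 0.37 ± 0.080 (limma, adjusted p = 0.00545). Here control sample 14 overlapped with the sleep-deprived samples. Ahsa1 encodes AHA1, which speeds up the ATPase of HSP90. Its levels of 7.38, 7.59 and 7.68 in sleep-deprived livers did not overlap with 7.01, 7.23 and 7.35 in controls, and the log2 difference was 0.36 ± 0.063 (limma, adjusted p = 0.000819).

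The remaining HSP90 partners differed less. Fkbp4, an immunophilin of steroid receptor complexes, was at a log2 difference of 0.020 ± 0.043 (95% interval from -0.071 to 0.11). Cdc37, which brings kinases to HSP90, was at 0.038 ± 0.058, and St13, the HSP70-interacting protein HIP, at 0.060 ± 0.049. Ptges3, the co-chaperone p23, was at 0.19 ± 0.10 (limma, adjusted p = 0.349). The probe set of Ptges3 was its only one not shared with a pseudogene, at mean log2 levels of 4.67 in sleep-deprived and 4.48 in control livers.

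The CCT chaperonin is built from 8 different subunits in a double ring, and all 8 genes had a positive difference, of which 2 passed the test. Cct2 ranged over 9.07, 9.10 and 9.30 in sleep-deprived livers, against 8.78, 8.97 and 9.00 in controls (lowest, median and highest log2 level). No control reached the sleep-deprived samples. The log2 difference of Cct2 was 0.22 ± 0.049 (limma, adjusted p = 0.00622). Cct3 had levels of 7.35, 7.46 and 7.60 in sleep-deprived livers, against 7.03, 7.20 and 7.36 in controls, with 6 of 7 sleep-deprived samples above all controls, and a log2 difference of 0.28 ± 0.061 (limma, adjusted p = 0.00543). Cct5 was next at 0.18 ± 0.062 (limma, adjusted p = 0.0754, and 0.0399 without control sample 7), with 7 of 7 sleep-deprived samples above the control mean. Tcp1, Cct4, Cct6a, Cct7 and Cct8 lay between 0.012 and 0.093. The subunits are present in equal number in the complex, and here the differences of the 8 transcripts ran from 0.012 (Cct7) to 0.28 (Cct3).

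Of 5 genes whose proteins work in mitochondria, Dnaja3 alone was called. Hspd1 and Hspe1 encode HSP60 and its lid HSP10. Hspd1 had levels of 9.65, 9.78 and 9.93 in sleep-deprived livers, against 9.58, 9.76 and 9.86 in controls (lowest, median and highest log2 level). The groups overlapped except for 1 sleep-deprived sample above all controls and 1 control below all sleep-deprived samples. The log2 difference of Hspd1 was 0.020 ± 0.050, with a 95% interval from -0.083 to 0.12. Hspe1 was at 0.039 ± 0.097 (95% interval from -0.16 to 0.24). Hspa9, the mitochondrial HSP70 mortalin, was at -0.035 ± 0.036, with an interval from -0.11 to 0.039. Outside mitochondria 12 of 42 members were called higher. Whether the mitochondrial genes differed from the others in their response was not tested.

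Because families hold inducible and constitutive members, the difference between a pair of relatives was taken within each sample and compared between groups (exact permutation test over samples, two-sided, 5 pairs tested of 7 listed, adjusted over the 5). The pairs were listed with earlier results of these data known, so the p-values do not rest on an independent choice of pairs. Hsph1 minus Hspa4 was -1.12 ± 0.19 in sleep-deprived and -1.81 ± 0.22 in control livers (log2, SD, n = 7 each), so that Hsph1 differed by 0.69 ± 0.11 (SE) more than Hspa4 (exact permutation p = 0.000583, the smallest that 7 against 7 samples can give, adjusted p = 0.00291). All 7 sleep-deprived samples were above all controls in this measure. For Bag3 minus Bag1 the values were 1.15 ± 0.21 and 0.49 ± 0.21 in sleep-deprived and control livers, a difference of 0.66 ± 0.11 (exact permutation p = 0.00117, adjusted p = 0.00291). Dnajb1 minus Dnajb6 was 0.10 ± 0.15 in sleep-deprived and -0.14 ± 0.15 in control livers. The difference was 0.24 ± 0.079 (exact permutation p = 0.00874, adjusted p = 0.0146). Neither gene passed by itself, but that test was adjusted over all genes of the array and the pair test over the 5 pairs. Before adjustment the single-gene p-values were 0.0119 for Dnajb1 and 0.469 for Dnajb6 (limma). The pair therefore does not show a response that Dnajb1 alone lacked.

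The pairs of inducible and constitutive HSP70 did not pass. Hspa1b differed by 0.18 ± 0.20 more than Hspa8 (exact permutation p = 0.430, adjusted p = 0.537), and Hspa1a by 0.065 ± 0.13 more (exact permutation p = 0.608, adjusted p = 0.608), which became -0.078 with the mean of the Hspa8 probe sets. The spread of Hspa1b between mice was wide, with SDs of 0.36 in sleep-deprived and 0.46 in control livers, against 0.071 and 0.095 for Hspa8. Probe sets differ in how far they compress a change, and the part of this in the pair values was not tested.

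**Figure D3:**
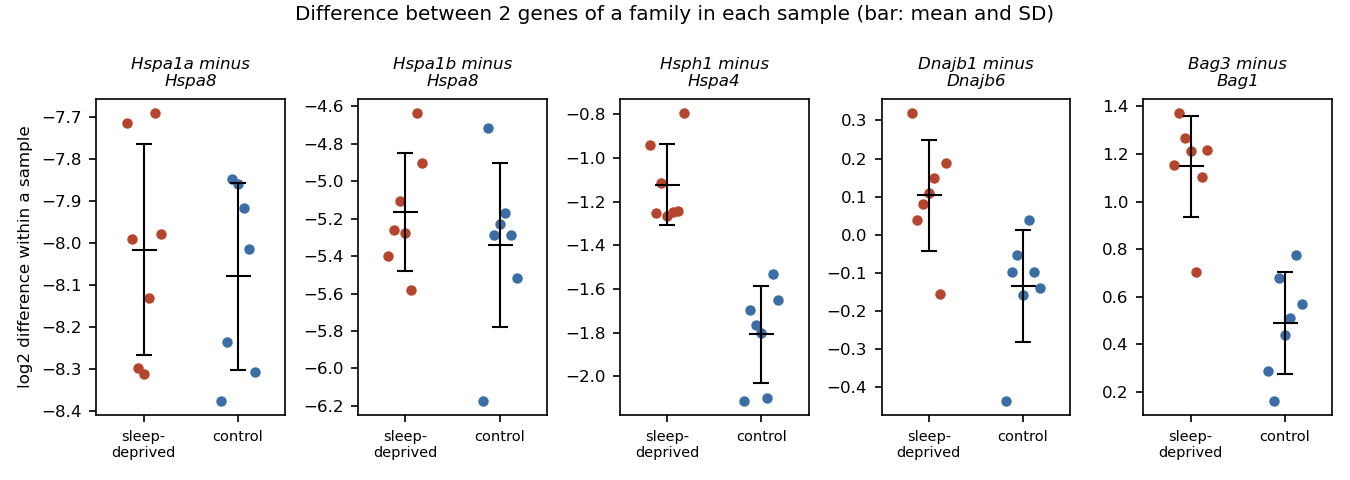
Difference in log2 expression between 2 genes of a family within each sample, sleep-deprived on the left and control on the right of each panel, with the mean and SD (n = 7 each). Hsph1 minus Hspa4 separates all sleep-deprived from all control samples, and both pairs with Hspa8 overlap widely.

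Across the 13 called genes, the median deviation of a sample from the control mean lay between 0.30 and 0.42 on the log2 scale in the 7 sleep-deprived livers and between -0.14 and 0.12 in the 7 controls. The 13 genes were picked for being higher in these same samples, so this gap is largely set by the choice and is no further test. Sleep-deprived sample 1 had the highest median (0.42) and sample 6 the lowest (0.30). Sample 13 was the highest of the sleep-deprived samples at 7 of the 13 genes. Samples 1, 10 and 13 were above all controls at all 13 genes, and sample 3, with the fewest, at 10. Among controls, samples 14 and 7 had the highest medians, at 0.12 and 0.096. Over all 47 genes the sample medians were 0.053 to 0.17 in sleep-deprived and -0.037 to 0.091 in control livers.

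**Figure D4:**
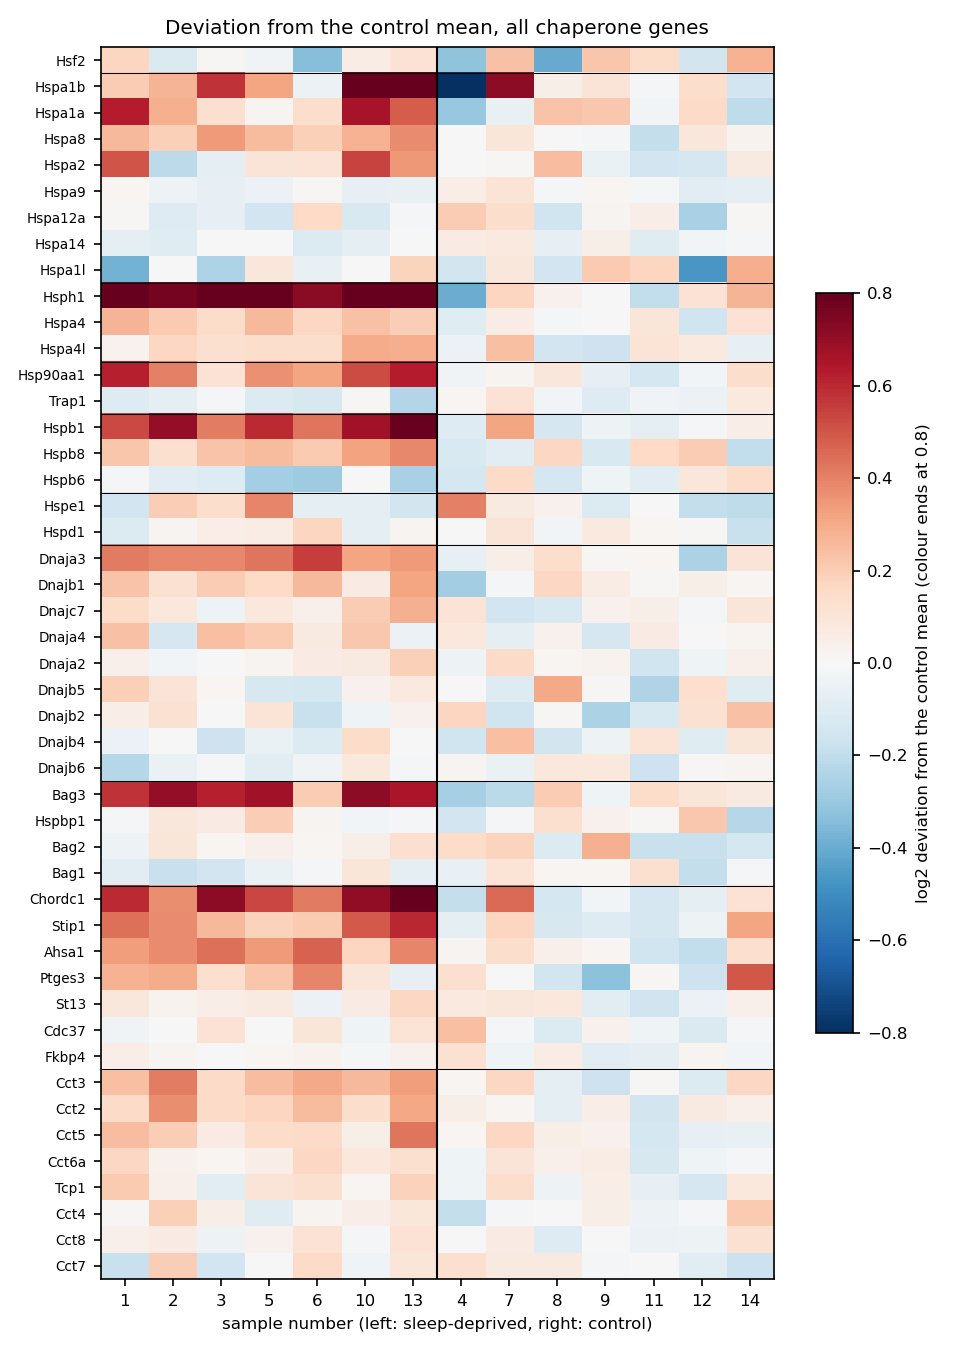
Deviation of each of the 47 chaperone genes (rows, by class) from its control mean in each sample (columns, sleep-deprived left of the line, control right), as a log2 difference with colours ending at 0.8. The rows of the 13 called genes are red in the sleep-deprived samples, and Hspa1b varies within both groups.

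Other chaperones and cofactors, 80 in number, were listed from textbook knowledge, though with earlier results of these data known, and were measured at 72 genes. Of these 7 were higher and 2 lower, with a median log2 difference of 0.020, against the background of 3.88% higher and 4.62% lower. At a mean log2 level of at least 6, 5 of 39 were higher, against 10.4% of all genes at that level. Fkbp5 encodes FKBP51, an HSP90 co-chaperone that lowers hormone binding by the glucocorticoid receptor and is itself induced by it. It had levels of 7.59, 8.08 and 8.28 in sleep-deprived livers, against 6.19, 6.52 and 6.75 in controls (lowest, median and highest log2 level). That difference of 1.55 ± 0.099 (limma, adjusted p = 3.19e-08) exceeded that of any of the 47 genes, and its relative Fkbp4 differed by 0.020. Cdc37l1, a relative of Cdc37, was at 0.30 ± 0.068, and Hikeshi, which carries HSP70 into the nucleus under heat, at 0.24 ± 0.061.

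In mitochondria, Clpx, the unfolding subunit of the ClpXP protease, ranged over 7.74, 8.32 and 9.15 in sleep-deprived livers, against 7.31, 7.67 and 7.88 in controls (lowest, median and highest log2 level), a difference of 0.81 ± 0.16 (limma, adjusted p = 0.00193). Grpel2, an exchange factor of mitochondrial HSP70, was at 0.41 ± 0.10 (limma, adjusted p = 0.0143), and the protease gene Htra2 at -0.24 ± 0.064 (limma, adjusted p = 0.0217). The J-protein genes Dnajc18 (0.41 ± 0.12) and Dnajc21 (0.22 ± 0.066), which acts in ribosome assembly, were the other higher ones. Hspb11, which despite its name is part of intraflagellar transport, was at -0.35 ± 0.092 (limma, adjusted p = 0.0194). Dnajb14, a J-protein of the endoplasmic reticulum, missed the threshold at 0.18 ± 0.056 (limma, adjusted p = 0.0505). Prefoldin, which hands actin and tubulin to CCT, had 0 of 5 genes past the threshold (1 at an unadjusted p under 0.05, Pfdn1 at -0.22 ± 0.073), and the list of CCT and tubulin folding cofactors with the CCT relative Cct6b 0 of 7 (1 at an unadjusted p under 0.05, Tbcd at -0.14 ± 0.057).

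The tissue label held, since the hepatocyte markers Alb, Ttr and Fgb were at mean log2 levels of 13.31, 12.97 and 12.56 in sleep-deprived and 13.31, 12.98 and 12.56 in control livers. Of 9 hepatocyte markers 2 were higher, Apoa1 at a log2 difference of 0.12 and Cps1 at 0.11, and 0 lower. Among all genes at a mean log2 level of at least 6, 10.4% were higher and 11.9% lower. Hnf4a at 0.24 (limma, adjusted p = 0.0604) and Asgr1 at -0.15 (limma, adjusted p = 0.0527) were not called. The other hepatocyte markers lay between -0.0135 and 0.0404. Of 7 sinusoidal endothelial markers 3 were higher and 0 lower. The log2 differences were 1.13 (Lyve1), 0.29 (Pecam1) and 0.27 (Ptprb) for the called ones, and 0.17 (Stab1), 0.12 (Clec4g), 0.044 (Stab2) and -0.18 (Kdr) for the others. The mean log2 level of the 7 ranged from 7.39 to 7.85 in sleep-deprived and from 7.19 to 7.51 in control livers. Stellate cell markers had 1 of 7 higher and a mean of 6.62 to 6.96 in sleep-deprived and 6.44 to 6.94 in control livers. Cholangiocyte markers had 1 of 4 higher (Sox9) and a mean of 4.00 to 4.68 in sleep-deprived and 4.00 to 4.18 in control livers, with Epcam at 2.68 and 2.75, under the array median. Of 6 lymphocyte markers 1 was lower (Cd79a), with means of 3.10 to 3.27 in sleep-deprived and 2.95 to 3.27 in control livers. Kupffer cell (7 genes), neutrophil (4) and muscle or pancreas (4) markers had 0 called by limma and 0 at an unadjusted p under 0.05. The Kupffer mean was 6.13 to 6.85 in sleep-deprived and 6.05 to 7.31 in control livers. The part of these cell types in the chaperone results was not tested. In whole liver a change in the number of cells of a type and a change in RNA per cell cannot be told apart.

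Promoter windows were held for 42 of the 47 measured members, 56 windows in all. The letters of a heat shock element, GAANNTTC or TTCNNGAA, stood in 15.1% of the 32851 windows of all genes. They stood in 7 of 13 windows of called members (6 of 11 genes) and in 13 of 43 windows of members not called (12 of 31 genes). The longer form, in which GAANNTTC is followed after any 2 bases by GAA, or TTCNNGAA likewise by TTC, and in which both short matches overlap, stood in 0.603% of all windows. Among the members, Hsph1, Chordc1, Dnajb6, Hspd1 and Hspe1 had the longer form. Chordc1 held 5 of the short matches, the first of them 4 bases before the start, while the matches of Hspd1 and Hspe1 lie in the DNA that these genes share, being read in opposite directions. Hspd1 and Hspe1 were among the members with no call, as was Dnajb6 at a log2 difference of -0.047 ± 0.063. No match was found in the windows of the called genes Hspa4, Dnaja3, Ahsa1, Stip1 and Cct3, nor in the other window of Cct2. A match describes letters in this window and says nothing of whether a factor bound there.

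**Figure D5:**
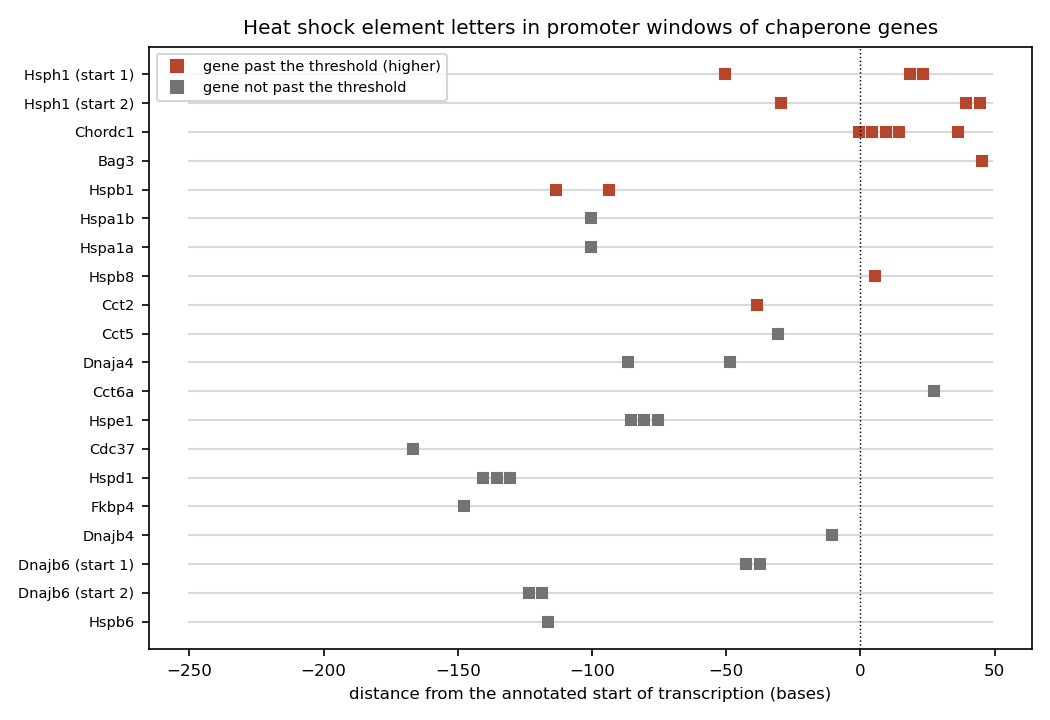
Centres of matches to GAANNTTC or TTCNNGAA (squares) in promoter windows of chaperone genes, by distance in bases from the annotated start of transcription, for windows with a match and sorted by log2 difference from top to bottom. Red marks genes called higher after sleep deprivation and grey the members not called, which hold matches as well.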

How the data were processed

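Per the labels, total RNA was labelled with the Affymetrix WT PLUS kit, and per the submitters' processing notes the deposited log2 expression values were made by RMA (its version and filters are not stated). RMA can compress differences of dim probe sets, and the table holds no detection calls. Arrays have no read depth, so precision is limited by the 7 arrays of each group.

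Of 41345 probe sets, 23521 had 1 gene symbol in the platform annotation, 1814 had several and 16010 were unnamed. The brightest over all 14 arrays stood for a gene, which gave 22180 genes with no filter on dim ones. The two-sided test of sleep-deprived minus control used limma 3.58.1 (lmFit, then eBayes with trend; R 4.3.3), with Benjamini-Hochberg adjustment across the 22180 genes and a call at 0.05, and was tested on simulated data first. Pairs were tested by exact permutation. The members, the lists, the pairs and the alternatives were chosen with earlier results of these data known. All members are named, and of the other chaperones the 10 with the smallest adjusted p. Promoters shown are those of the 3 called members with the largest difference that hold a match, of 1 CCT member, and of Hspe1, which was picked after its values were seen. Pfdn1 and Tbcd were added after their values were seen. The pairs with Hsp90ab1 and Dnaja1 were not tested. Title numbers are not shared between groups, so nothing was paired, and the labels name no batch. Arrays correlated at 0.984 to 0.990 (Pearson), and none were identical.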

Additional observations from a re-analysis of the deposited data

Results flagged for a closer look

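In 5 of 94 sets of 7 samples (47 genes in 2 groups), the highest or lowest sample lay farther from its neighbour than Dixon's 95% criterion allows, and chance alone marks about 1 set in 20. Bag3 in sleep-deprived sample 6 was low at a log2 level of 7.517, with the next sample at 7.889. Hspa8 in control sample 11 was low at 10.83, with the next at 11.01. Hspb1 in control sample 7 was high at 5.162 (next 4.901), Dnajb1 in control sample 4 was low at 4.79 (next 5.049) and Cdc37 in control sample 4 was high at 7.389 (next 7.184).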

How the results depend on the processing

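The count of 13 chaperone genes higher and 0 lower was within 12 to 14 higher and 0 lower in the 9 other fits over all genes, and 13 to 15 higher and 0 lower in the 14 fits that left out 1 sample. The 13 genes were all among the calls in each of the 14, while Dnaja3 lost its call with the mean of its probe sets and Hspb8 with every probe set tested (values above). A log2 difference of at least 0.5 as well left 4 of the 13 genes and 391 of the 1886 genes changed over the whole array, a count that ran from 1541 to 1893 with 1 sample left out. Of the other chaperones and cofactors, 4 were higher and 1 lower with every probe set tested, and 5 to 8 higher and 1 to 4 lower with 1 sample left out (4 lower without sleep-deprived sample 6, 1 without control sample 11). These settings were added for that list after the data were seen. The cause of these shifts was not tested, except that testing every probe set adds tests.

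Signs turned only at members without a call. With the sample number as a covariate these were Hsf2 (0.048), Hspa1l (0.033), Hspe1 (-0.076), Dnajb4 (0.011), Dnajb5 (-0.002) and Cct7 (-0.0041), and with the mean of its probe sets Hspa1l (0.049) and the pair Hspa1a minus Hspa8 (-0.078). Leaving out 1 sample gave -0.085 to 0.036 for Hsf2, -0.0093 to 0.042 for Hspd1, -0.019 to 0.11 for Hspe1, -0.026 to 0.055 for Dnajb2, -0.063 to 0.0073 for Dnajb4, -0.018 to 0.072 for Dnajb5 and -0.018 to 0.044 for Cct7. No paired analysis was possible because the groups share no sample number.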

Other observations

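Hspa2 and Hspa1a, neither of which passed the test, had their 3 highest values of all 14 samples in the same sleep-deprived samples, a pattern picked after the values were seen and not tested. For Hspa2 these were 5.01 in sample 10, 4.97 in sample 1 and 4.81 in sample 13 on the log2 scale, with the other 4 sleep-deprived samples between 4.26 and 4.58 and the controls between 4.31 and 4.72. For Hspa1a they were 3.60 in sample 10, 3.57 in sample 1 and 3.42 in sample 13, with the controls between 2.64 and 3.16. Hsp90aa1 was also highest in samples 13 (6.77), 1 (6.77) and 10 (6.67), against controls of 6.01 to 6.29. The same 3 samples were the highest of all 14 at Stip1 and Dnajc7 and, outside the members, at Clpx, Grpel2 and Dnajc18. The pattern was thus not particular to Hspa2 and Hspa1a.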
